A study of Arabidopsis thaliana with 12 samples.

Results

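The 40 genes listed here as cysteine-rich receptor-like kinases (CRKs) of Arabidopsis thaliana were chosen by their gene identifiers as members of the family, and 29 of them were among the 23106 genes of the deposited tables. Each table compares groups from one set of 12 root RNA-seq libraries, 3 per group. The groups were HO seedlings given cellotriose (CT), HO seedlings given water, SWT seedlings given CT and SWT seedlings given water. HO seedlings are homozygous for cork1-2 (SALK_021490C), a T-DNA insertion in CORK1, the receptor kinase with a malectin domain that the study ties to the sensing of cellooligomers. SWT seedlings are wild-type segregants of the same cross, and all groups carry the aequorin calcium reporter of the other parent, AeqWT [pMAQ2]. CT is a chain of glucose units released from cellulose. It was given at 10 µM in 1 mL for 1 h to seedlings grown for 10 days before transfer to the treatment plates, and each library pooled the roots of 16 seedlings. A single insertion allele was used for these libraries, so in them effects of CORK1 and of anything linked to the insertion cannot be told apart. In other assays the study also used the insertion line cork1-1 and the chemically induced mutant EMS71.

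CRKs are plasma membrane receptors of plants. Outside the cell they carry copies of the DUF26 domain, whose conserved cysteines form disulfide bridges, followed by a membrane span and a serine/threonine kinase domain inside the cell. The family is large and lies mostly in tandem arrays, and many of its members are known for transcript rises under pathogens, microbial elicitors, salicylic acid and reactive oxygen. A few have been placed near immune receptor complexes. CRK28 associates with the co-receptor BAK1, CRK2 phosphorylates the NADPH oxidase RBOHD, and CRK36 has been linked to the cytoplasmic kinase BIK1.

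The annotation matched the list by name and by sequence. RefSeq (TAIR10.1) gave 39 of the 40 genes a product name with the words cysteine-rich, the exception being CRK1, which is named receptor-like serine/threonine kinase 2. Exactly 2 copies of the cysteine spacing typical of DUF26 (a cysteine, 8 residues, a cysteine, 2 residues and a cysteine) stood in 36 of the 40 translated proteins, and in 122 of 27444 proteins of the genome. CRK17 held 4 copies, CRK23 held 3, and CRK24 and CRK27 held 1 each. Protein length ran from 528 residues in CRK24 to 1043 in CRK8, with a median of 661. Chromosome 4 carries 35 of the genes, chromosome 1 carries 3, and chromosomes 3 and 5 carry 1 each. With a limit of 20 kb between neighbouring starts, 32 genes fell into 5 runs, the longest of which holds 19 CRKs from CRK5 to CRK24 within 74.2 kb (chr4:12117491-12191704). The authors aligned reads to TAIR10, and positions here are those of TAIR10.1.

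The stretch before each gene was searched for the W-box core TTGAC, the element bound by WRKY transcription factors, on both strands (TTGAC or GTCAA) in the 300 bases before the annotated start. Over all 27443 protein-coding genes, 50.4% of such windows held at least 1 core, 17.9% at least 2 and 5.07% at least 3. Among the 40 CRKs these counts were 30, 18 and 10 genes. A match is a description of letters and not a bound site. The windows below are shown because they belong to the closest pair of CRK proteins, to the next closest pair, from another run, to the CRK with most cores and to the CRK with the smallest p-value under CT. Each reads 5′ to 3′ on the strand of its gene and ends at the base before the gene, with the cores in capitals.
CRK20 (chr4:12174433-12174732, plus strand): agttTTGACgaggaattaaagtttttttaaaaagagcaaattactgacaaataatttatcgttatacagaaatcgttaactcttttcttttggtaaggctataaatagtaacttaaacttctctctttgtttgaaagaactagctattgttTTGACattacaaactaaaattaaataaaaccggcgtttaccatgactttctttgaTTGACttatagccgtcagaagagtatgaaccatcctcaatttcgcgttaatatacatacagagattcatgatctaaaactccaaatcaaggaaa
CRK19 (chr4:12170655-12170954, plus strand): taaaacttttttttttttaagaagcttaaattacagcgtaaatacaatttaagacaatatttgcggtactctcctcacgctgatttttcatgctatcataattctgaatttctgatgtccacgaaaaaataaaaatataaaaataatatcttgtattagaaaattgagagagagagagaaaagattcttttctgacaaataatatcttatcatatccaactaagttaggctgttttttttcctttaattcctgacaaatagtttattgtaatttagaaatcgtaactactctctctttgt
CRK31 (chr4:6967409-6967708, plus strand): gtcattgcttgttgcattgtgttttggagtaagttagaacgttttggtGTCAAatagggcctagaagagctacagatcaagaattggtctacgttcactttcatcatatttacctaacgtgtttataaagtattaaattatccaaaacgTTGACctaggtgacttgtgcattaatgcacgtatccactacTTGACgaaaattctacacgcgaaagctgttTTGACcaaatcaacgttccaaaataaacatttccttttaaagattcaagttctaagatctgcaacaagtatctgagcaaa
CRK32 (chr4:6971101-6971400, plus strand): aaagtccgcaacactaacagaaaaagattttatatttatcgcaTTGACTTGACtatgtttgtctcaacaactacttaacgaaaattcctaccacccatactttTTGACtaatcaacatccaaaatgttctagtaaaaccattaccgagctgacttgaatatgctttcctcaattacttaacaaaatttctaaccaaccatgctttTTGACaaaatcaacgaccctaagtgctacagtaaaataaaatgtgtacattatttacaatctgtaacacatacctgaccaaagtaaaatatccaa
CRK11 (chr4:12143859-12144158, minus strand): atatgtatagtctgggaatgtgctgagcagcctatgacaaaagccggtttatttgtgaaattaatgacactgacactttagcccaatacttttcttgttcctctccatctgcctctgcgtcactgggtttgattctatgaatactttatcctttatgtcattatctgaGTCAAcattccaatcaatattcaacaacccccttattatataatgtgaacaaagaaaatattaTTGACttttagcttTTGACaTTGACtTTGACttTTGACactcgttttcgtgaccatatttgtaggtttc
CRK10 (chr4:12137695-12137994, plus strand): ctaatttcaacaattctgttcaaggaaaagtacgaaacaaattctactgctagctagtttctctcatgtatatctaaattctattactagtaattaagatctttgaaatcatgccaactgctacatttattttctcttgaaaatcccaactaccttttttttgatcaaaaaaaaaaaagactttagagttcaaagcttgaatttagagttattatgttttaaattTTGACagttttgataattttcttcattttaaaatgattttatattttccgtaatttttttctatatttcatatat
CRK20 holds 3 cores and CRK19 none, although their proteins are 85.1% identical. The 4 cores of CRK31 start 252, 151, 110 and 80 bases before the gene. In CRK32 the 4 cores start at 257, 252, 197 and 95 bases, the first 2 of them directly joined. All 6 cores of CRK11 start within 132 bases of the gene, and CRK10 has a single one at 75 bases.

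The 29 CRKs in the tables covered a wide range of levels. The deposited mean normalized count, the average over libraries of reads per gene divided by a size factor, had a median of 78.2 for these CRKs and of 283 for all genes. Per kb of exon, CRK29 was highest at 1063 normalized counts, followed by CRK19 at 779, CRK25 at 528 and CRK2 at 487. CRK42 was lowest at 0.371. Means of at least 50 were found for 16 CRKs, of 10 to 50 for 4, and below 10 for 9. The remaining 11 listed genes, CRK1, CRK7, CRK12, CRK13, CRK15, CRK21, CRK22, CRK23, CRK33, CRK37 and CRK38, have no row in the tables and were not analysed here. The depth of each library is unknown, since the tables hold no values per library, so whether libraries of different groups overlap was not analysed here. Group means and the spread between replicates were recovered from the deposited means, log2 fold changes and standard errors (SE). Among CRKs with a mean of at least 50, the recovered coefficient of variation between SWT water replicates was 12.4% to 49.9%, with a median of 21.5%. Below a mean of 10 its median was 154%, and none of those 9 genes had a 95% interval narrow enough to exclude a change of the size of the study's fold criterion.

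The labels and the tissue were checked on genes outside the family. CORK1 averaged 255 normalized counts in HO water and 1413 in SWT water. All 7 root markers were detected, with summed means from 183400 in SWT CT to 262000 in HO water, led by PYK10, a beta-glucosidase abundant in roots. The 5 photosynthetic shoot markers summed to 3471 in HO CT, 3551 in HO water, 2133 in SWT CT and 3153 in SWT water, and none was at 0. All 5 had lower estimates with CT than with water in SWT, by log2 values of -0.90 to -0.50, and for RCA and LHCB2.1 the DESeq2 adjusted p was 0.0264 and 0.0407. PYK10 was also lower with CT in SWT, by -0.42 on the log2 scale (DESeq2 adjusted p 0.0207). The part of these shifts in the SWT responses given next was not tested. In whole roots, fewer cells of a type and less RNA per cell cannot be told apart.

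CT against water in SWT roots shows what CRK transcripts do where CORK1 is intact. A gene was called by the study's criteria, a DESeq2 adjusted p below 0.05 together with a change of at least 2.514-fold in either direction. Of the 29 CRKs, 11 rose with CT, and none fell. The 11 genes were CRK5 (AT4G23130), CRK10 (AT4G23180), CRK14 (AT4G23220), CRK17 (AT4G23250), CRK18 (AT4G23260), CRK20 (AT4G23280), CRK29 (AT4G21410), CRK31 (AT4G11470), CRK32 (AT4G11480), CRK40 (AT4G04570) and CRK41 (AT4G00970). The called genes made up 45.8% of the 24 CRKs with an adjusted p in this table, and over all genes with one 2.58% were called higher. CRK14 and CRK41 have an adjusted p only through their SWT CT reads, so their calls follow in part from that filter, and 9 of the other 22 CRKs were called. CRK14, CRK16, CRK24 and CRK41 would be below the smallest mean in the tables without SWT CT. The median log2 fold change of the 29 CRKs was 1.30, and that of all genes was -0.011. The CRK median was 1.27 with genes near 0 counts set to their bound or count ratio. For CRKs with a mean of at least 50 it was 1.16. At any fold change 14 CRKs were higher, which adds CRK2 (AT1G70520), CRK11 (AT4G23190) and CRK28 (AT4G21400), against 8.3% of all genes. When the change was tested against 2.514-fold in place of 0, 6 of the 11 remained. The summed level of the 29 CRKs was 19300 normalized counts in SWT CT and 10450 in SWT water, beside 9810 in HO CT and 8867 in HO water.

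**Figure D1:**
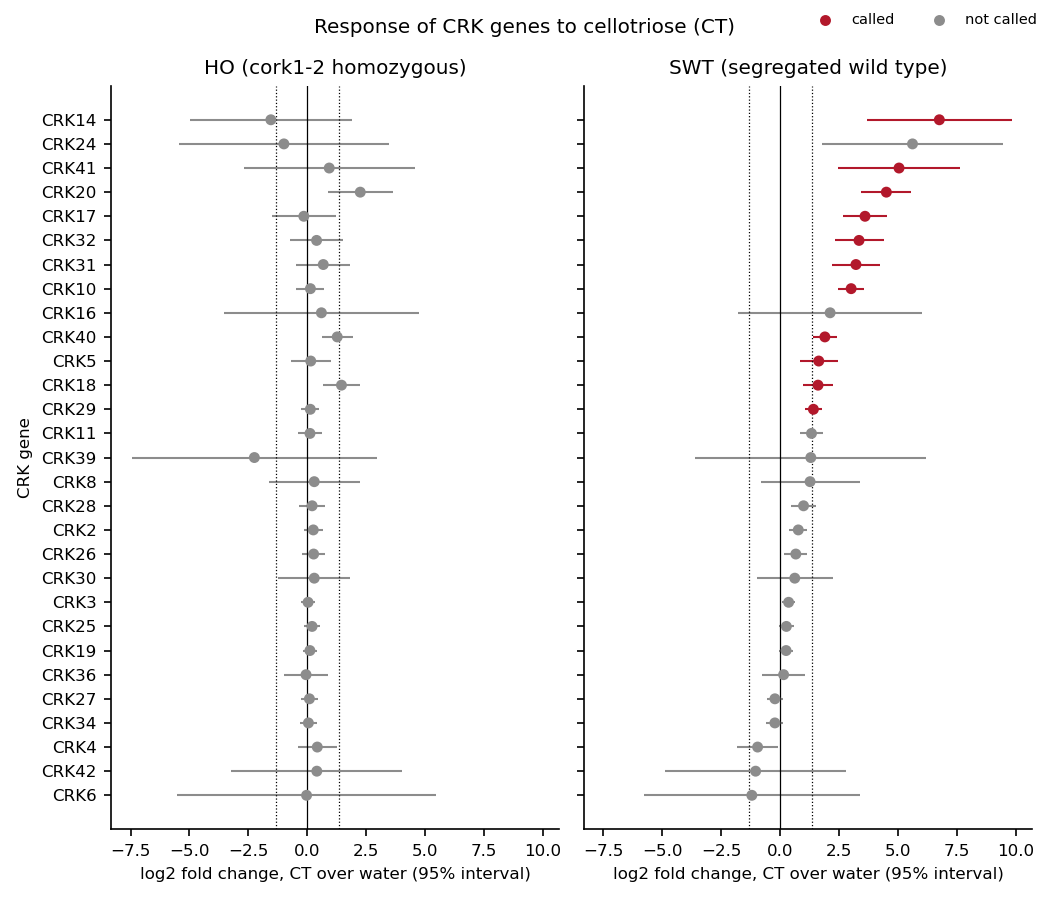
Log2 fold change of 29 CRK genes with CT over water in HO (left) and SWT (right), with 95% intervals as bars, dotted lines at the 2.514-fold criterion and called genes in red. The SWT panel holds 11 called genes, from CRK29 at 1.41 to CRK14 at 6.75, and the HO panel holds none. The CRK14 value was fitted to 57 counts in SWT CT and 0 in SWT water, which give only a bound of at least 19.1-fold.

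CRK29 (chr4:11401711-11405235, minus strand, 6 exon blocks) was the most abundant member and was among those that rose. It averaged 6322 ± 1020 normalized counts in SWT CT and 2378 ± 386 in SWT water (recovered SD, n = 3 each), a log2 fold change of 1.41 (SE 0.19, DESeq2 adjusted p 1.05e-11). Its tandem neighbour CRK28 (chr4:11398857-11402180, minus strand, 5 exon blocks), the BAK1-associated kinase, averaged 872 ± 202 in SWT CT and 438 ± 103 in SWT water. The CRK28 estimate of 0.99 (SE 0.28, DESeq2 adjusted p 0.00459) was under the fold criterion. The annotated exons of CRK28 and CRK29 overlap by 470 bases on one strand, and CRK29 shares 23 further exon bases with AT4G03065, a noncoding gene on the same strand. The counts of CRK28 and CRK29 are therefore uncertain.

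CRK10 (chr4:12137995-12140930, plus strand, 6 exon blocks) had the smallest p-value of the family, and by its Wald statistic it stood at rank 63 among all genes. A gain-of-function allele of CRK10 is known for dwarfism and changed root vessels. Its level was 581 ± 132 normalized counts in SWT CT and 72.0 ± 18.2 in SWT water (recovered SD, n = 3 each), a log2 fold change of 3.01 (SE 0.28, DESeq2 adjusted p 6.04e-24). CRK11 (chr4:12140899-12143858, minus strand, 6 exon blocks), its neighbour on the opposite strand, averaged 1922 ± 413 with CT and 765 ± 166 with water in SWT. Its 2.513-fold change (SE 0.25 on the log2 scale, DESeq2 adjusted p 5.52e-06) was just short of the criterion. The annotated ends of CRK10 and CRK11 overlap by 32 bases, and the strand setting of the counting was not given in the sources used here.

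Larger folds were seen for CRKs that were scarce in water. CRK20 (chr4:12174733-12177576, plus strand, 7 exon blocks), a member known from work on bacterial growth in leaves, averaged 314 ± 133 normalized counts in SWT CT and 13.8 ± 6.89 in SWT water, a log2 fold change of 4.51 (SE 0.54, DESeq2 adjusted p 1.41e-14). CRK17 (chr4:12162004-12167026, minus strand, 13 exon blocks), which RefSeq also names EMB1290, averaged 160 ± 56.4 in SWT CT and 13.2 ± 5.81 in SWT water, a log2 fold change of 3.60 (SE 0.47, DESeq2 adjusted p 1.53e-12). It overlaps CRK16 by 776 exon bases on the same strand, and its count is uncertain for that reason.

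CRK31 and CRK32, adjacent genes whose proteins are 83.0% identical, moved by nearly the same amount. CRK31 (chr4:6967709-6970469, plus strand, 6 exon blocks) averaged 156 ± 64.1 normalized counts in SWT CT and 16.8 ± 7.91 in SWT water, a log2 fold change of 3.22 (SE 0.52, DESeq2 adjusted p 3.3e-08). For CRK32 (chr4:6971401-6973962, plus strand, 5 exon blocks) the levels were 249 ± 107 in SWT CT and 24.5 ± 11.5 in SWT water, a log2 fold change of 3.35 (SE 0.53, DESeq2 adjusted p 1.57e-08). The estimates differ by less than the SE of either.

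Smaller rises were measured for CRK5, CRK18 and CRK40. CRK5 (chr4:12117491-12120220, minus strand, 6 exon blocks), known for enhanced defence and cell death when overexpressed, averaged 197 ± 68.0 normalized counts in SWT CT and 63.3 ± 22.8 in SWT water, a log2 fold change of 1.64 (SE 0.42, DESeq2 adjusted p 0.00147). CRK18 (chr4:12167416-12170080, minus strand, 8 exon blocks) averaged 196 ± 53.9 in SWT CT and 64.5 ± 18.9 in SWT water, a log2 fold change of 1.61 (SE 0.33, DESeq2 adjusted p 4.16e-05). CRK40 (chr4:2288616-2292965, plus strand, 7 exon blocks) averaged 133 ± 25.9 in SWT CT and 35.8 ± 8.64 in SWT water, a log2 fold change of 1.90 (SE 0.26, DESeq2 adjusted p 1.39e-11).

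CRK14 and CRK41 were close to absent without CT. CRK14 (chr4:12154091-12156881, minus strand, 7 exon blocks) had 57 normalized counts over the 3 SWT CT libraries and 0 over the 3 SWT water libraries, so it was at least 19.1-fold higher with CT when the floor is 3 counts over the group (DESeq2 adjusted p 0.000345). CRK41 (chr4:418327-421885, plus strand, 6 exon blocks) had 63 counts over the SWT CT libraries and 2 over the SWT water libraries, a ratio of 31.5 with an exact Clopper-Pearson 95% interval of 8.37 to 266 that covers counting error only (DESeq2 adjusted p 0.0021). CRK24 (AT4G23320) showed a similar picture with fewer reads, 25 counts in SWT CT and 0 in SWT water, at least 8.39-fold higher. It has an unadjusted p of 0.00418 and no adjusted p in this table, and so was not called.

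The members that did not pass included the other abundant ones. CRK19 (AT4G23270) averaged 2421 normalized counts in SWT CT and 2034 in SWT water, a log2 fold change of 0.25 with a 95% interval of -0.04 to 0.54. CRK25 (AT4G05200) averaged 1403 in SWT CT and 1170 in SWT water, with an interval of -0.07 to 0.59. These intervals exclude a rise of the size of the fold criterion. CRK2, the kinase that acts on RBOHD, averaged 1732 in SWT CT and 1017 in SWT water, a log2 fold change of 0.77 (SE 0.20, DESeq2 adjusted p 0.00197) that passed at any fold only. CRK4 (AT3G45860), which has been tied to flagellin responses, had the lowest estimate among members with a mean of at least 10, -0.96 (SE 0.44, DESeq2 adjusted p 0.159).

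The other moderately to highly expressed members did not pass. CRK3, the tandem neighbour of CRK2 on chromosome 1, averaged 1345 ± 166 normalized counts in SWT CT and 1050 ± 130 in SWT water, a log2 fold change of 0.36 (SE 0.15, DESeq2 adjusted p 0.0961). CRK26 averaged 294 ± 61.5 in SWT CT and 186 ± 39.7 in SWT water, a log2 fold change of 0.66 (SE 0.25, DESeq2 adjusted p 0.0619). CRK27 and CRK34 had slightly lower estimates with CT, -0.22 (SE 0.18) each, and CRK36 had 0.15 (SE 0.47). For CRK27 the SWT levels were 456 ± 68.9 with CT and 533 ± 79.9 with water, and for CRK34 they were 395 ± 61.7 with CT and 462 ± 71.5 with water.

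The remaining scarce members could not be resolved at this depth. Over the 3 libraries of a group, CRK16 had 8 normalized counts in SWT CT and 2 in SWT water, CRK39 had 7 in SWT CT and 3 in SWT water, and CRK42 had 2 in SWT CT and 4 in SWT water. CRK8 averaged 6.18 ± 5.23 in SWT CT and 2.57 ± 2.49 in SWT water, and CRK30 averaged 7.01 ± 4.73 in SWT CT and 4.56 ± 3.33 in SWT water. CRK6 had 7 counts in SWT CT and 17 in SWT water, but 0 in both HO groups, so in water it was at least 5.51-fold lower in HO. That difference did not pass (DESeq2 adjusted p 1.00), and the replicate spread recovered for CRK6 in SWT water was 142% of its mean.

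**Figure D2:**
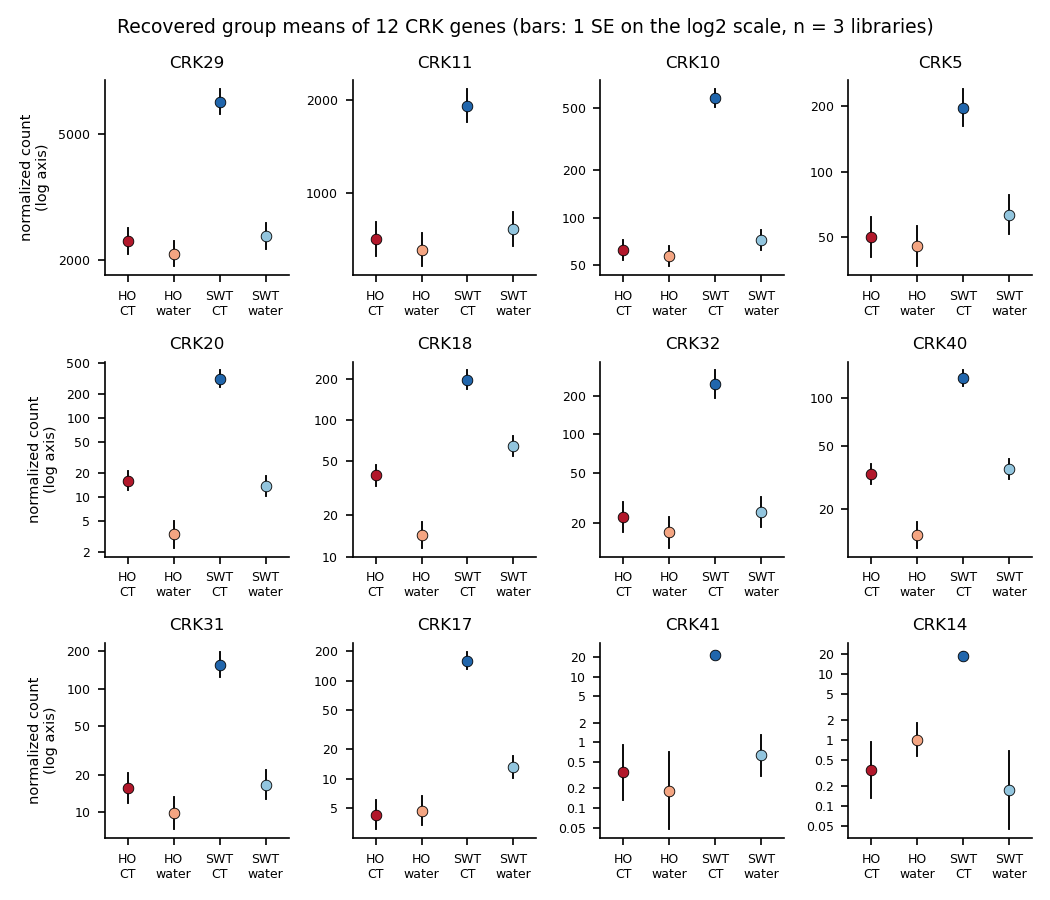
Recovered group means (normalized counts, log axis, a separate scale per panel) of the 11 CRKs called with CT in SWT and of CRK11, in HO CT, HO water, SWT CT and SWT water. Bars are 1 SE of the group mean on the log2 scale with 3 libraries per group. The 11 genes were picked by their rise in SWT, so SWT CT above SWT water follows from that choice. In all 12 panels SWT CT is also above both HO groups. CRK14 and CRK41 have an adjusted p only through their SWT CT reads.

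Sequence similarity and response were set side by side. The 2 most similar proteins in the family, CRK20 and CRK19, had SWT log2 fold changes of 4.51 (SE 0.54) and 0.25 (SE 0.15), although the genes are direct neighbours. Among the other close pairs, CRK17 and CRK18 (76.6% identical) had 3.60 and 1.61, and CRK28 and CRK29 (81.5% identical) had 0.99 and 1.41. CRK40 had 1.90, while its closest relative CRK39 (79.8% identical) had too few reads for an estimate, with an interval of -3.60 to 6.20. No member in the tables had 10% or more of its exon windows of 150 bases elsewhere in the genome, the highest being CRK8 with 6.78%. CRK19, CRK25 and CRK42 overlap a gene on the opposite strand by 102, 391 and 130 exon bases, so their counts are uncertain as well.

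In the CRK5 to CRK24 run, 12 of the 19 genes were in the tables and 6 of these were called in SWT. Over all genes with an adjusted p, 2.58% were called higher in SWT. CRK14, among the 6, has an adjusted p only through its SWT CT reads. Called and uncalled members were interspersed. CRK18 and CRK20 were called and CRK19 between them was not. At the end of the run, CRK21 to CRK23 were not in the tables and CRK24 was not called. In the 5-gene run of CRK30 to CRK34, the adjacent CRK31 and CRK32 were called, CRK33 was not in the tables, and CRK30 and CRK34 had log2 fold changes of 0.62 (SE 0.83) and -0.22 (SE 0.18).

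**Figure D3:**
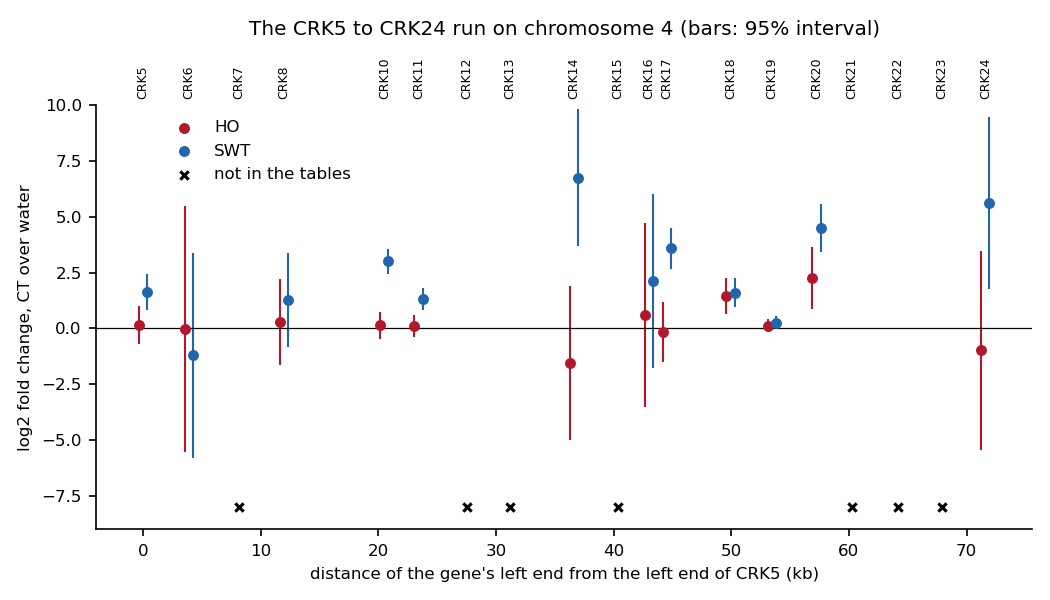
Log2 fold change with CT over water (95% interval) in HO (red) and SWT (blue) for CRK genes along the CRK5 to CRK24 run, by distance in kb of the left end of each gene from that of CRK5, with crosses for genes not in the tables. CRK19, at 0.25 in SWT, lies between CRK18 at 1.61 and CRK20 at 4.51.

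The number of upstream W-box cores was set beside the calls as a description, with no test. Of the 11 CRKs called in SWT, 8 had at least 3 cores in the 300-base window, as in the printed windows of CRK20, CRK31 and CRK32. Of the 18 CRKs in the tables without a call 2 did, CRK11 and CRK16, and none of the 11 genes outside the tables did. The share over all genes was 5.07%. CRK14 and CRK41 are among the 8 and have an adjusted p only through their SWT CT reads. Without SWT CT, CRK14, CRK16, CRK24 and CRK41 would be below the smallest mean of any gene. The sorting into these groups therefore depends in part on the response itself. CRK40, with no core, and CRK10 and CRK29, with 1 each, were called as well. CRK11, with 6 cores, is the gene at 2.513-fold. Several of the CRKs share sequence by descent, so these windows are not independent of one another. The windows of CRK16 and CRK28 lie wholly within the annotated spans of CRK17 and CRK29 on the same strand. That of CRK15 lies partly within CRK16.

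**Figure D4:**
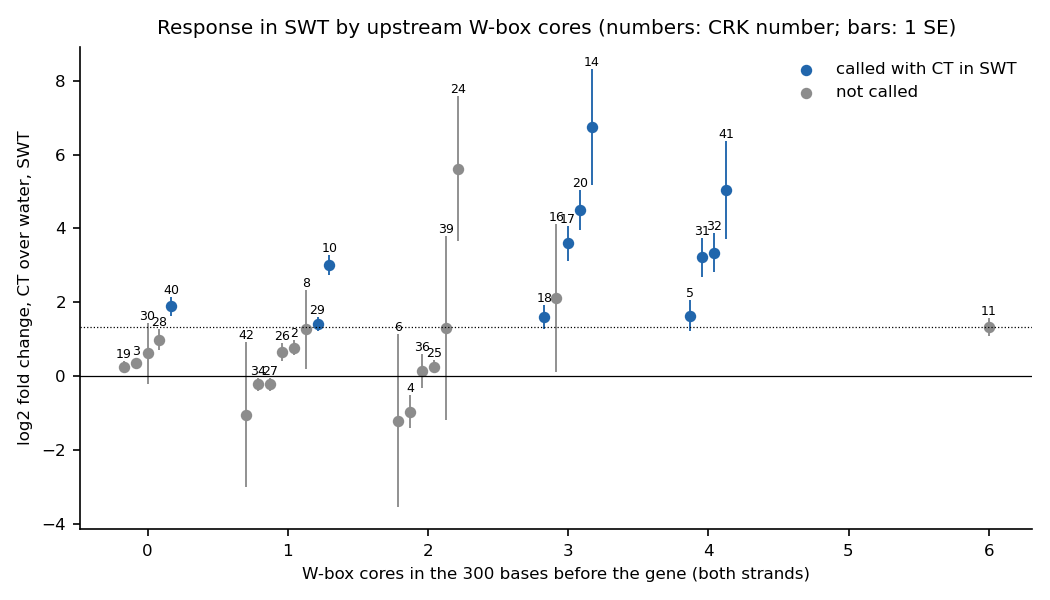
Log2 fold change with CT over water in SWT (bars 1 SE) by the number of W-box cores in the 300 bases before each of 29 CRK genes, with CRK numbers as labels, called genes in blue and the 2.514-fold criterion as a dotted line. With at least 3 cores 8 of 10 genes were called, among them CRK14 and CRK41, which have an adjusted p only through SWT CT. The 3 called genes to the left are CRK10, CRK29 and CRK40.

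CT against water in HO roots asked whether CRK transcripts respond when CORK1 is disrupted. None of the 29 CRKs was called by DESeq2, and over all genes the share called was 0.00866%. At an unadjusted p below 0.05 there were 3 of 29 CRKs, all with higher estimates with CT, where 1.85% of all genes had such a p and 1.28% had it with a higher estimate. The median log2 fold change of the family was 0.21, against -0.0073 for all genes. CRK10 averaged 62.3 ± 16.0 normalized counts in HO CT and 56.7 ± 14.7 in HO water (recovered SD, n = 3 each), a log2 fold change of 0.13 with a 95% interval of -0.46 to 0.73. CRK29 averaged 2291 ± 372 in HO CT and 2093 ± 340 in HO water, with an interval of -0.24 to 0.51. CRK17 averaged 4.26 ± 2.53 in HO CT and 4.71 ± 2.71 in HO water, a log2 fold change of -0.15 (SE 0.69). The 95% intervals of all 3 exclude a rise as large as the fold criterion. CRK14 and CRK41 stayed at or under 3 counts over the libraries of each HO group.

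The 3 CRKs with an unadjusted p below 0.05 in HO were CRK40, CRK18 and CRK20. CRK40 averaged 33.2 ± 8.17 normalized counts in HO CT and 13.8 ± 4.41 in HO water, a log2 fold change of 1.27 (SE 0.34, DESeq2 adjusted p 0.371). CRK18 averaged 39.3 ± 12.2 in HO CT and 14.4 ± 5.37 in HO water, a log2 fold change of 1.45 (SE 0.40, DESeq2 adjusted p 0.538). CRK20 averaged 16.0 ± 7.83 in HO CT and 3.37 ± 2.32 in HO water, a log2 fold change of 2.25 (SE 0.70, DESeq2 adjusted p 0.893). With CT these genes stood in HO near or below their SWT water levels of 35.8, 64.5 and 13.8. Dividing the statistics by their robust spread over all genes would call CRK18 and CRK20 in HO.

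In water, the same 3 genes had the largest Wald statistics of the family for HO against SWT. CRK18 was called lower in HO, by -2.17 on the log2 scale (SE 0.40, DESeq2 adjusted p 9e-05), as was CRK40, by -1.38 (SE 0.33, DESeq2 adjusted p 0.0243). These 2 of 29 CRKs compare with 0.113% of all genes called lower in HO. The adjusted p of CRK40 is above 0.01, and neither gene passed when tested against 2.514-fold. CRK20 had an estimate of -2.04 (SE 0.71, DESeq2 adjusted p 0.495), CRK28 of -0.75 (SE 0.28, DESeq2 adjusted p 0.629) and CRK17 of -1.49 (SE 0.60, DESeq2 adjusted p 0.806). The family's median was -0.30, or -0.32 with genes near 0 counts set to their bound or count ratio and those at the floor in both groups left out, against 0.0015 for all genes, and 23 of 29 estimates lay below 0. The water difference and the HO response share the HO water libraries, so a low value there enters both with opposite sign.

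With CT, many CRK levels were lower in HO than in SWT. This difference was derived from the 3 tables. It gave 14 CRKs lower in HO and none higher, where 2.99% of all genes were called lower. They are the 11 genes called in SWT together with CRK11, CRK24 and CRK28, and at any fold CRK2 and CRK3 as well, against 9% of all genes. The derived difference and the SWT response both use the SWT CT libraries. Without SWT CT, CRK14, CRK24 and CRK41 would be below the smallest mean of any gene, so their calls follow in part from that group. With genes of a mean of at least 10 only, where they are no longer tested, 11 CRKs were called lower, beside 639 of all genes. The family's median log2 difference was -1.50, or -1.43 with genes near 0 counts set to their bound or count ratio, against 0.0015 for all genes. CRK10 averaged 62.3 normalized counts in HO CT and 581 in SWT CT, a log2 difference of -3.22 (SE 0.29, Benjamini-Hochberg (BH) adjusted p of z 7.4e-27). CRK17 averaged 4.26 in HO CT and 160 in SWT CT, a log2 difference of -5.23 (SE 0.57, BH-adjusted p of z 1.41e-17). CRK20 averaged 16.0 in HO CT and 314 in SWT CT, a log2 difference of -4.29 (SE 0.54, BH-adjusted p of z 1.57e-13). CRK28, not called in the SWT response, averaged 301 in HO CT and 872 in SWT CT, a log2 difference of -1.53 (SE 0.28, BH-adjusted p of z 1.04e-06). The log2 differences of CRK32 and CRK31 were -3.48 (SE 0.53, BH-adjusted p of z 3.57e-09) and -3.31 (SE 0.52, 1.3e-08), and those of CRK18 and CRK5 were -2.32 (SE 0.34, 9.08e-10) and -1.98 (SE 0.42, 6.04e-05). CRK31 averaged 15.7 in HO CT and 156 in SWT CT, and CRK32 averaged 22.3 in HO CT and 249 in SWT CT. CRK5 averaged 50.1 in HO CT and 197 in SWT CT. CRK40 averaged 33.2 in HO CT and 133 in SWT CT, so that HO had 24.9% of the SWT level (SE 0.26 on the log2 scale, BH-adjusted p of z 1.42e-12). CRK11 averaged 712 in HO CT and 1922 in SWT CT. The abundant CRK29 and CRK11 differed by -1.46 (SE 0.19, 1.31e-12) and -1.43 (SE 0.25, 6.43e-07). CRK14 had 1 count over the HO CT libraries and 57 over the SWT CT libraries, and CRK41 had 1 in HO CT and 63 in SWT CT (BH-adjusted p of z 0.00331 and 0.000754). CRK24 had 0 counts over the HO CT libraries and 25 over the SWT CT libraries, at least 8.39-fold lower in HO (BH-adjusted p of z 0.0364). Tested in the same way against 2.514-fold, 5 of the 14 remained. The 5 shoot markers had higher estimates in HO than in SWT with CT, by log2 values of 0.47 to 0.83, and their part in these differences was not tested. CRK2 and CRK3 were under the fold criterion, at -0.72 (SE 0.20) and -0.44 (SE 0.15). CRK4 and CRK26 did not pass, with log2 differences of 1.08 (SE 0.44) and -0.66 (SE 0.25).

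**Figure D5:**
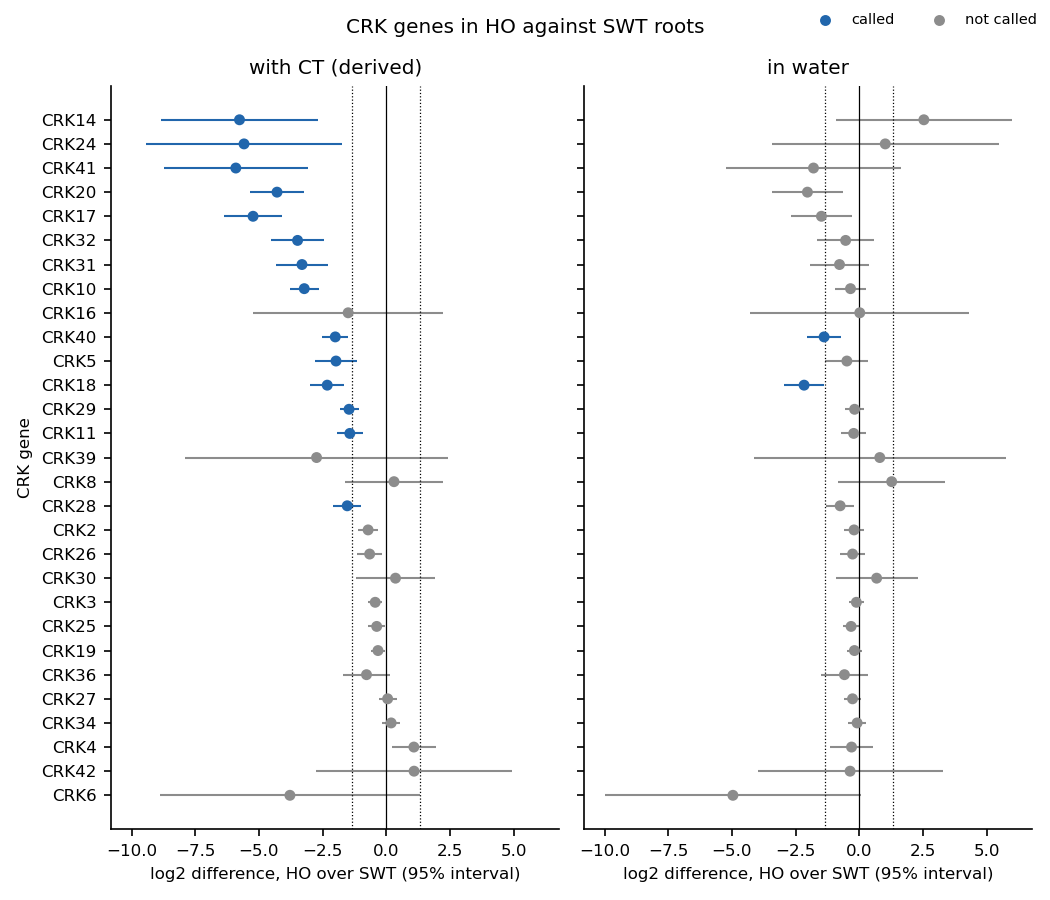
Log2 difference of HO over SWT (95% interval) for 29 CRK genes with CT (left, derived) and in water (right), with called genes in blue and dotted lines at the 2.514-fold criterion. With CT 14 genes are called, all lower in HO, and in water CRK18 at -2.17 and CRK40 at -1.38. Without SWT CT, CRK14, CRK24 and CRK41 would be below the smallest mean of any gene.

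The CT responses of the 2 genotypes were then compared gene by gene, as HO response minus SWT response, with z statistics and Benjamini-Hochberg (BH) adjustment over all genes and no fold criterion. The response was lower in HO for 7 CRKs and higher for none, where 3.31% of all genes had a lower response in HO. The genes were CRK10, CRK11, CRK14, CRK17, CRK29, CRK31 and CRK32. CRK10 differed by -2.88 on the log2 scale (SE 0.42, BH-adjusted p of z 1.39e-09), CRK29 by -1.28 (SE 0.27, BH-adjusted p of z 0.000172) and CRK17 by -3.75 (SE 0.83, BH-adjusted p of z 0.000481). For the pair of CRK31 and CRK32 the differences were -2.54 (SE 0.78, BH-adjusted p of z 0.0343) and -2.95 (SE 0.78, 0.00645). CRK11 differed by -1.21 (SE 0.36, BH-adjusted p of z 0.0241). The fitted value for CRK14 rests on 0 to 3 counts in each group other than SWT CT and is no measure of size (BH-adjusted p of z 0.0153). Without SWT CT, CRK14 would be below the smallest mean of any gene. With genes of a mean of at least 10 only, 6 CRKs were called, beside 783 of all genes with a lower response in HO. At an adjusted p below 0.01, 4 of these 7 calls remained, and none did when the difference was tested against a 2.514-fold change in place of 0.

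For the other 5 CRKs called in SWT, the difference between genotypes was not called. CRK18 had the most similar responses, 1.45 in HO and 1.61 in SWT on the log2 scale, a difference of -0.15 with a 95% interval of -1.18 to 0.87. CRK40 had 1.27 in HO and 1.90 in SWT, a difference of -0.62 with an interval of -1.46 to 0.21. CRK20 had 2.25 in HO and 4.51 in SWT, a difference of -2.26 (SE 0.89, BH-adjusted p of z 0.173). CRK5 had 0.15 in HO and 1.64 in SWT, a difference of -1.49 (SE 0.60, BH-adjusted p of z 0.191). CRK41 had a fitted difference of -4.11 (SE 2.27, BH-adjusted p of z 0.499). That value rests on 0 to 2 counts in each group other than SWT CT and, as for CRK14, is no measure of size. CRK4 went the other way, with 0.43 in HO and -0.96 in SWT, a difference of 1.38 (SE 0.61, BH-adjusted p of z 0.271).

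Proteins with DUF26 domains but no kinase were measured beside the CRKs, on a list made with earlier results of these data known. Of 11 such genes, 3 rose with CT in SWT. By DESeq2, 0 were called in HO, where 0 also had an unadjusted p below 0.05. Over all genes these shares were 0.00866% and 1.85%, so counts of 0 among 11 genes say nothing particular about them. The 3 of 11 stand beside 2.58% of all genes called higher in SWT. AT5G48540, a secreted DUF26 protein, averaged 4559 normalized counts in SWT CT and 796 in SWT water, a log2 fold change of 2.52 (SE 0.24, DESeq2 adjusted p 6.08e-24). AT4G23170, which lies inside the CRK5 to CRK24 run, had 3.25 (SE 0.87, DESeq2 adjusted p 0.00309), and AT3G22060 had 1.40 (SE 0.22, DESeq2 adjusted p 8e-09). None of the 8 plasmodesmata-located proteins (PDLP1 to PDLP8), which regulate the channels between cells, was called, with log2 fold changes of -0.45 to 0.46 in SWT.

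Receptors and signalling partners around CRKs were a second group. The list was made with earlier results of these data known, so counts over it are a description only. Of 8 genes, FLS2, the flagellin receptor, and SERK4, a co-receptor of the BAK1 family, were called in SWT, with log2 fold changes of 1.93 (SE 0.27, DESeq2 adjusted p 6.18e-11) and 1.57 (SE 0.17, DESeq2 adjusted p 4.78e-19). These 2 of 8 stand beside 2.58% of all genes. The counts of both are uncertain, since 16.2% of the exon windows of SERK4 occur elsewhere in the genome and FLS2 overlaps a gene on the opposite strand by 172 exon bases. At any fold 7 of the 8 were higher, against 8.3% of all genes, including BAK1 at 0.79, BIK1 at 0.92 and RBOHD at 1.02. The BIK1 homologue PBL1 was not, at -0.01 (SE 0.10). None of the 8 was called by DESeq2 in HO or in water, with 0 at an unadjusted p below 0.05 in either. Over all genes, 0.00866% were called in HO and 0.113% were called lower in HO in water. In HO, 1.85% had an unadjusted p below 0.05. At such shares a count of 0 among 8 genes says nothing particular about them. Of the 8, 5 had a lower response in HO (BH-adjusted over all genes), against 3.31% of all genes. The median SWT response of these 8 genes was 0.85 on the log2 scale, beside 1.30 for the CRKs. The value of 1.30 is the estimate of CRK39, which had too few reads. For CRKs with a mean of at least 50 the median was 1.16.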

How the data were processed

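Poly-A RNA of roots was sequenced in 12 libraries. The authors aligned paired reads to TAIR10 with STAR 2.7.10a, counted reads per gene with featureCounts 2.0.1 and fitted all libraries with DESeq2 1.34.0. The strand setting of the counting was not given in the sources used here. The 9 CRKs in the tables that overlap another gene were held uncertain. CRK16 overlaps CRK17, and CRK28 overlaps CRK29, on the same strand, so the counts of these genes are uncertain whatever the strand setting. The authors deposited 3 tables (CT versus water in HO, CT versus water in SWT, HO versus SWT in water). The deposited signal is a mean normalized count and was identical in the 3 tables. The deposited log2 values are fold changes and their SEs, the deposited score is the Wald statistic, and the authors' p-values are two-sided with Benjamini-Hochberg adjustment. As the tables hold no values per library, the authors' test was used as deposited. The columns for values per sample that were not used numbered 0.

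Group means were recovered from the mean and the fold changes, and replicate SDs from the SEs. HO against SWT with CT was derived by adding the HO response to the water difference and subtracting the SWT response. It and the difference between responses were tested with z and Benjamini-Hochberg (BH) adjustment over 23103 genes. These steps assume 1 dispersion per gene in 1 fit: dispersions from the tables had Spearman correlations of 1.00 over 17564 genes, and the deposited signs gave the smallest gap among dispersions of all sign combinations tried. Recovered sums over a group without counts lay at 0.455 to 0.565, and the next value was 0.932. Nothing used here says that the libraries of a group came from separate experiments, so p-values measure only the spread between these samples. All 40 members were accounted for. Levels, log2 values, SEs and adjusted p were given for called members (counts near 0 or a percentage in place of some log2 values), and values also for the 3 of largest Wald statistic per comparison and the 3 of highest level per kb. The members and lists were chosen with earlier results of these data known. Sequences are from RefSeq TAIR10.1. The steps were run in Python 3.11.15 with numpy 2.4.6, pandas 2.3.3, scipy 1.17.1, Biopython 1.88 and matplotlib 3.10.9 and tested on simulated data. Alternatives changed the fold criterion, the threshold, the null hypothesis, the set of genes adjusted over, the spread, the centring and the members with uncertain counts.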

Additional observations from a re-analysis of the deposited data

Results flagged for a closer look

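The responses to CT differed between the genotypes by the z test in 7 CRKs, and all were lower in HO. Over all genes, 3.31% had a lower response in HO. The HO minus SWT differences on the log2 scale were -2.88 for CRK10, -1.21 for CRK11, -8.30 for CRK14, -3.75 for CRK17, -1.28 for CRK29, -2.54 for CRK31 and -2.95 for CRK32. The value of CRK14 was fitted to 0 to 3 counts in each group other than SWT CT and is no measure of size. Without SWT CT, CRK14 would be below the smallest mean of any gene, so its call follows in part from that group. With genes of a mean of at least 10 only, CRK14 is no longer tested and 6 CRKs were called. The counts of CRK10, CRK11, CRK17 and CRK29 are uncertain because these genes overlap another gene.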

How the results depend on the processing

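No paired analysis was possible because the tables hold no values per library, and no replicate could be left out for the same reason. The tests against the fold criterion itself lowered the counts of called CRKs to 6 in SWT, 0 in water, 5 with CT and 0 for the difference between responses. At an adjusted p below 0.01 the counts were 1 in water and 4 for the difference. Statistics divided by their robust spread gave 2 CRKs in HO (CRK18 and CRK20), 8 in SWT (without CRK5, CRK14 and CRK41, at adjusted p of 0.124, 0.066 and 0.143), 11 with CT (without CRK14, CRK24 and CRK41) and 4 for the difference. Without the CRKs of uncertain count, 9 remained with CT and 3 for the difference, by construction of a shorter list, and the median with CT was -1.99. With genes of a mean of at least 10 only, CRK14 and CRK41 are no longer tested and 9 CRKs were called in SWT. Over all genes, the count in SWT was 561 higher and 54 lower. It was 1806 and 702 at any fold, and 139 and 0 in the test against the criterion. With a mean of at least 10 only it was 539 and 50, and with the robust spread 418 and 19. In HO it was 2, against 32 with the robust spread and 0 at 0.01. In water it was 4 higher and 26 lower in HO, against 3 and 15 at 0.01 and 1 and 3 in the test against the criterion. With CT it was 55 higher and 690 lower in HO, against 988 and 2080 at any fold, 1 and 180 in the test against the criterion, and 17 and 440 with the robust spread. For genes of a mean of at least 10 it was 52 and 639. The difference between responses had 149 higher and 764 lower in HO, against 34 and 323 with the fold criterion, 73 and 505 at 0.01, 0 and 33 in the test against the criterion, and 74 and 512 with the robust spread. For genes of a mean of at least 10 the difference had 151 and 783. Of the calls of single CRKs under the alternatives, 193 kept direction and side and 39 no longer passed, and none reversed. This tally is no measure of robustness. A gene called with the fold criterion passes at any fold by construction. Genes no longer tested, such as CRK14 and CRK41 in SWT with a mean of at least 10 only, are left out of it. No adjusted p was given in SWT for CRK6, CRK16, CRK24, CRK39 and CRK42, and the 9 CRKs with a mean below 10 allow no statement on a lack of change.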
